A study of Mus musculus with 8 samples.

Results

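Cartilage matrix genes other than collagens were examined in the molars of wild-type and Wdr72-/- mouse pups. The set holds 10 genes, taken by symbol from the 54532 genes of the deposited table of read counts: Acan, Sox9, Comp, Matn1, Matn3, Matn4, Cnmd, Hapln1, Ucma and Chad. Of these, 6 had enough reads to be tested (Acan, Sox9, Matn4, Hapln1, Comp and Chad), and Matn1, Matn3, Cnmd and Ucma did not. Sox9 encodes a transcription factor of chondrocytes and not a matrix protein, and was in the set by name.

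The wild-type group (WT) held 4 libraries, numbered 2, 3, 4 and 5, and the knockout group (KO, Wdr72-/-) held 4 libraries, numbered 1, 3, 4 and 5. Both groups carry the strain label C57BL/6 and an age label of postnatal day 12, while the dissection protocol speaks of day 13. The pulp was taken out of each molar and the rest was homogenised whole, so that bone, ligament or other tissue on the molar could enter the RNA. The labels name the cells as ameloblasts, the epithelial cells that form enamel, and do not say which part of Wdr72 was removed, in which cells, or whether a library came from 1 pup or from several. The p-values therefore measure only the spread between these libraries.

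In cartilage, chondrocytes lie in a matrix of collagen II fibrils filled with aggrecan, a very large proteoglycan whose chondroitin sulfate chains hold water. Aggrecan binds hyaluronan, and link protein, the product of Hapln1, locks the pair together. Matrilins, COMP and chondroadherin connect these parts with each other and with the cells, and SOX9 drives the transcription of many of these genes. The enamel organ is an epithelium and makes a different matrix. Several of these genes are also known from other places, among them ligament, tendon, bone, brain and embryonic mesenchyme, so that a read of one of them does not mark a chondrocyte by itself.

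The libraries held 17084475 to 21887462 counted reads. Levels are given in CPM, a gene's share of the reads of its library after TMM scaling. The enamel organ markers were all present, with a summed level of 68000 to 110700 CPM over the WT and 72080 to 102400 CPM over the KO libraries. Bone markers reached 19850 to 36780 CPM over the WT and 25270 to 42360 CPM over the KO libraries. Most of the bone marker sum was Col1a1, at 16450 to 32300 CPM (WT) and 19710 to 37330 CPM (KO). Col1a1 was also counted among the odontoblast markers, so this sum does not measure bone alone. The WT libraries held 243 ± 63.6 CPM of Wdr72 and the KO libraries 45.1 ± 38.9 CPM (mean ± SD, n = 4 each, as for all such values below), and KO 1 kept the most of it, at 101.8 CPM. KO 5 stood apart, with a mean correlation of 0.965 with the other libraries against 0.980 to 0.983 for the rest. Xist, which is transcribed from the inactive X chromosome of females, was at 637 ± 269 CPM (WT) and 243 ± 81.4 CPM (KO), so the groups may differ in their share of females; its part in the results below was not tested beyond a fit with Xist as a covariate.

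The upstream sequences of Acan and Matn4 are shown because the KO libraries lay apart from the WT libraries in these 2 genes. Each run is the 250 bases before the RefSeq transcription start on GRCm38.p6, written 5′ to 3′ on the strand of the gene, with CG dinucleotides in capitals. The Acan run is chr7:79052976-79053225 on the plus strand, and it ends 257 bases before the start of the gene in the deposited table, because the annotations place the start differently. The Matn4 run is chr2:164405161-164405410 on the minus strand. The RefSeq table gives Matn4 a pair of starts, and the run shown is that of the start that matches the deposited table.
Acan: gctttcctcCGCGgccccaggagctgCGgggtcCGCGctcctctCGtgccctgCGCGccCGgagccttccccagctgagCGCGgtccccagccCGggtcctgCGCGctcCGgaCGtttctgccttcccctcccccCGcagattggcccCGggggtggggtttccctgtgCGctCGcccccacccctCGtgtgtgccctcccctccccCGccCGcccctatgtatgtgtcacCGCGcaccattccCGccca
Matn4: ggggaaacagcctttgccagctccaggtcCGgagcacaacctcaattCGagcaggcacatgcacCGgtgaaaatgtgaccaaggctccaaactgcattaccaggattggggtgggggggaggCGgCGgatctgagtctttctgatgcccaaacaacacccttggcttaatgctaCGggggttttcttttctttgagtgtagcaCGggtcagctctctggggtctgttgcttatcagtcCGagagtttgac

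The runs differ in composition. The Acan run had 26 CG dinucleotides and 74.4% G or C, and the Matn4 run had 8 and 54.4%, against medians of 6 and 52.4% over all 32851 upstream windows of the RefSeq table. The window of the other Matn4 start, chr2:164404819-164405068, had 14 CG dinucleotides and 62.8% G or C, between those of the runs shown. The table held 9 windows for 8 of the 10 genes. The SOX core letters ACAATG and ACAAAG, searched on both strands, were in 10.7% and 16.5% of all windows and in 0 of these 9. The TATA box letters TATAAA, on both strands, were in 12.4% of all windows and in 1 of the 9, that of Chad, with the first base 28 bases before the start. A missing match says only that these letters are not in these windows.

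Reads of the set were spread very unevenly over its members. All 10 genes together had 18172 reads in the 8 libraries, of which Matn4 took 55.7%, Sox9 25.4%, Hapln1 14.04% and Acan 2.72%, and the other 6 genes 2.15% in all. Per length of the gene, Matn4 was at 9.47 CPM per kilobase in WT, Sox9 at 6.34, Hapln1 at 2.56, Chad at 0.536, Comp at 0.305, Acan at 0.255, Cnmd at 0.149 and Matn3 at 0.0921 CPM per kilobase. The ranges over WT libraries of Matn4, Sox9, Hapln1 and Chad did not overlap from one to the next in this order, while those of Chad and Comp, Comp and Acan, Acan and Cnmd, and Cnmd and Matn3 did. In KO the order was the same except that Acan, at 0.586 CPM per kilobase, lay between Chad at 0.630 and Comp at 0.304. For scale, Col2a1, the main fibril collagen of cartilage, was at 2.29 CPM per kilobase in WT.

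**Figure D1:**
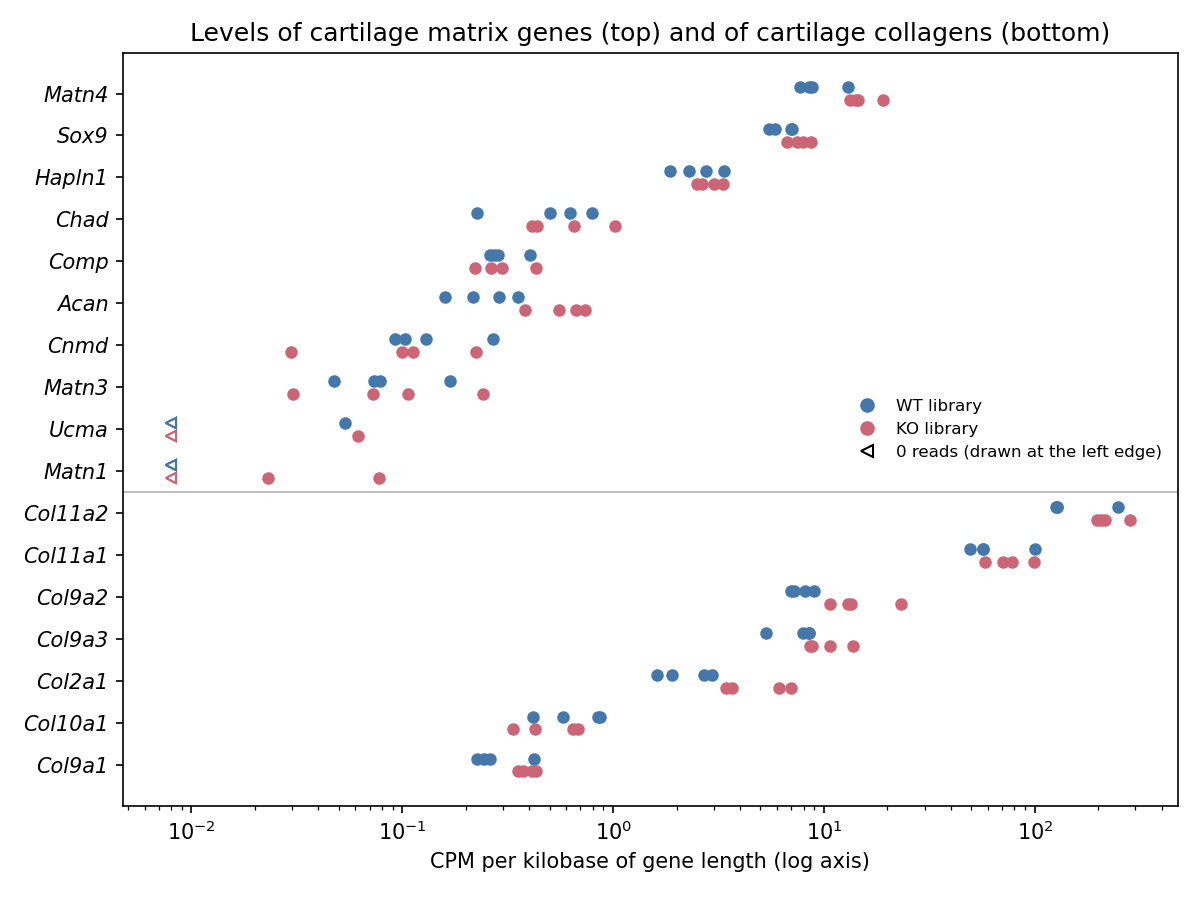
Levels per kilobase of gene length (log axis) in each WT and KO library, for the 10 cartilage matrix genes and for 7 cartilage collagens. Matn4, Sox9 and Hapln1 lie at 1.85 or above in every library, the other 7 genes of the set at 1.02 or below, and Matn1 and Ucma have 0 reads in most libraries, drawn as open triangles on top of each other.

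Acan and Matn4 were higher in all 4 KO libraries than in any WT library, and neither passed the threshold of 0.05 on the adjusted p, taken from edgeR's quasi-likelihood test over all 16205 genes tested. By edgeR 0 of the 6 tested genes passed, where 0.0309% of all genes tested passed. Wdr72, the gene knocked out, did not pass either. Its log2 fold change was -2.43, with all KO values below the WT values and an adjusted p of 0.080 in edgeR. Missing the threshold in edgeR therefore does not show that a gene was unchanged. Acan and Matn4 were called by DESeq2, where 2.87% of all genes tested passed, by limma voom, where 6.62% did, and by edgeR with no low-count filter, where 0.756% did. At an unadjusted p of 0.05 the count was 3 (Acan, Matn4 and Sox9), all higher in KO, where 8.70% of all genes tested were. Sox9 did not meet it under the other scalings or in DESeq2, which leaves 2 there. It met it in limma voom and under the other filters. In limma voom the count was 4, with Hapln1, where 3934 of 16205 genes met it in either direction. The groups did not overlap in 2 of the 6, both higher in KO, where 5.50% of all genes tested did not. Of the 6, 5 had a log2 fold change above 0, as did 53.1% of all genes tested, and the median was 0.25 against 0.021 over all genes. In whole-tissue RNA, more cells of a type and more RNA per cell cannot be told apart.

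**Figure D2:**
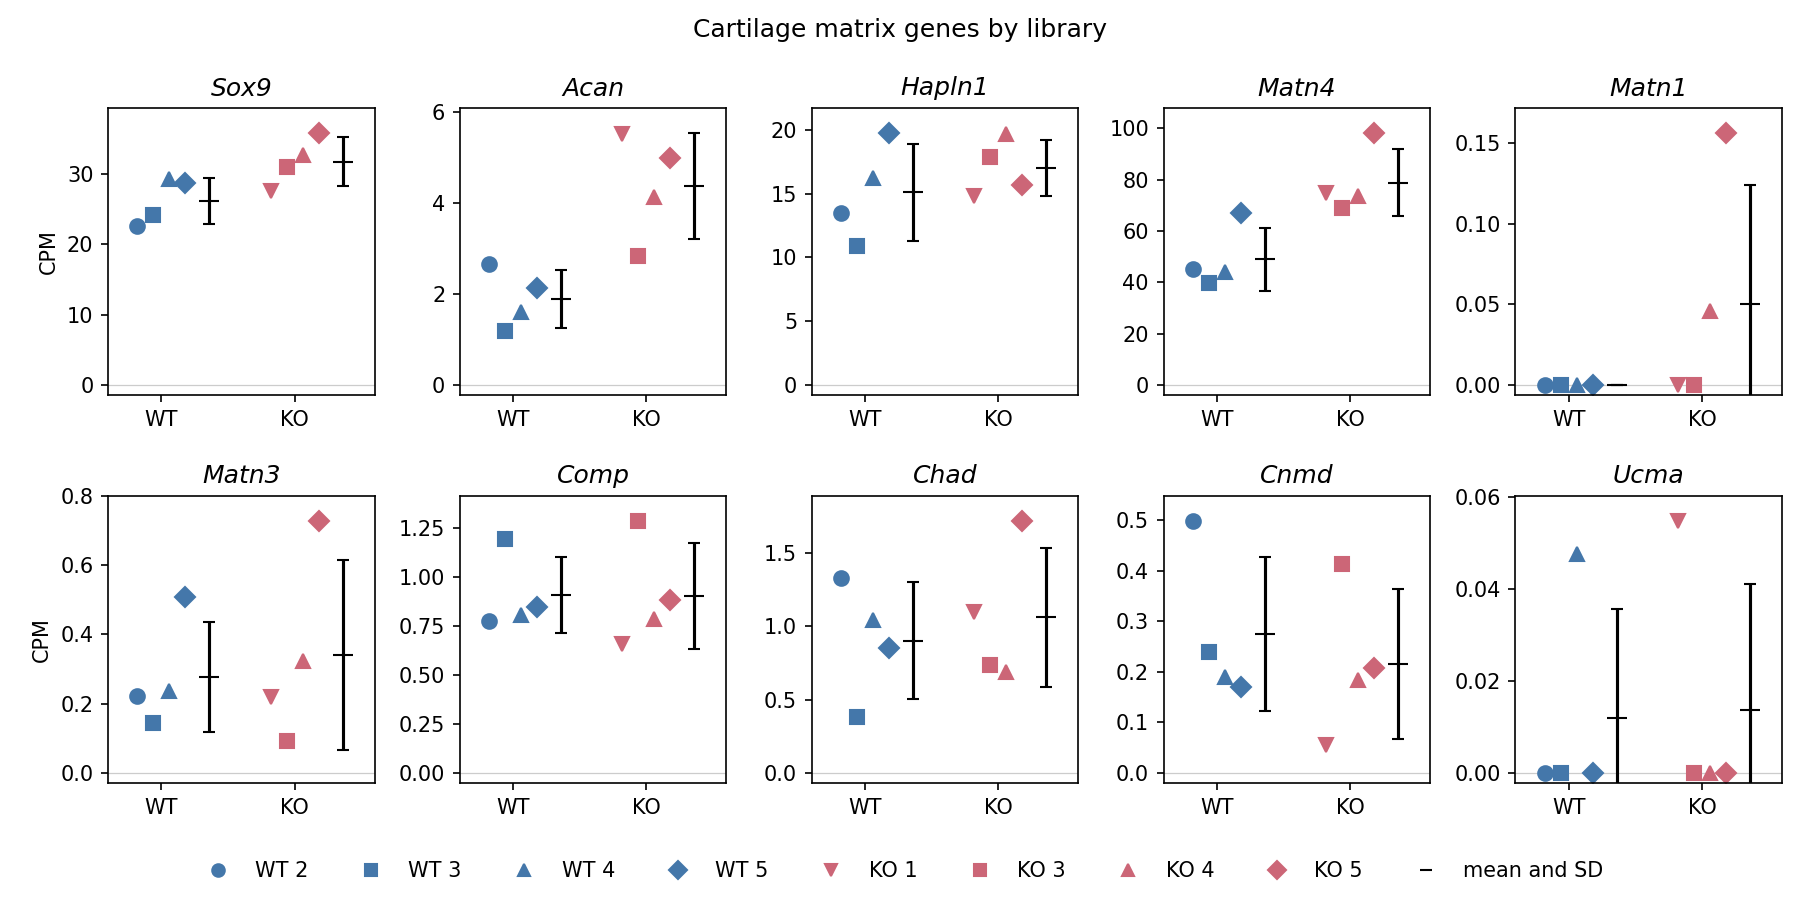
CPM of each gene in every library, with the mean and SD of each group in black; each panel has its own axis, starting at about 0. Acan and Matn4 have all 4 KO points above all 4 WT points, and the groups overlap in the other 8 genes.

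Sox9, the transcription factor at the head of the chondrocyte program and also known from other epithelial and mesenchymal cells, was at 22.6, 24.1, 29.3 and 28.7 CPM in WT 2, 3, 4 and 5. It was at 27.6, 31.0, 32.8 and 35.8 CPM in KO 1, 3, 4 and 5. KO 1 lay below WT 4 and WT 5, so that the groups overlapped. The means were 26.2 ± 3.30 and 31.8 ± 3.45 CPM, with a log2 fold change of 0.28 (SE 0.13, 95% interval 0.0041 to 0.55) and an adjusted p of 0.31 in edgeR. Without adjustment p was 0.047, and it was 0.051 to 0.075 under the other scalings and 0.056 in DESeq2. In limma voom it was 0.0057 (adjusted p = 0.066). In edgeR it was 0.046 with no low-count filter and 0.049 with a filter of at least 1 CPM in 4 libraries. In edgeR it was also above 0.05 when WT 2, WT 3, KO 3, KO 4 or KO 5 was left out, the highest being 0.16 without WT 2. It was 0.036 without WT 4, 0.040 without WT 5 and 0.027 without KO 1. With Xist as a covariate the log2 fold change was 0.098 (unadjusted p = 0.605).

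Acan encodes aggrecan itself. It had 48, 25, 34 and 38 reads in WT 2, 3, 4 and 5, or 2.66, 1.19, 1.61 and 2.15 CPM. It had 101, 62, 90 and 96 reads in KO 1, 3, 4 and 5, or 5.52, 2.84, 4.14 and 4.99 CPM. The KO libraries lay above the WT libraries, KO 3 only just above WT 2, and KO 1 was the highest. The mean was 1.90 ± 0.637 CPM (WT) and 4.38 ± 1.17 CPM (KO), a ratio of 2.30. The log2 fold change was 1.20 (SE 0.29, 95% interval 0.58 to 1.83), with an adjusted p of 0.11 in edgeR (unadjusted p = 0.0012). Over all alternatives run, the log2 fold change lay between 0.88, without KO 1 and KO 5, and 1.40, without WT 2, and the adjusted p between 0.0070 and 0.95. DESeq2 gave an adjusted p of 0.0070 and limma voom of 0.020, and edgeR with no low-count filter of 0.012, so the call depended on the tool and on the filter.

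The spread of Acan between libraries was wider than counting alone gives. The coefficient of variation was 33.5% in WT and 26.7% in KO, against 16.6% and 10.7% for counting error at these depths. Of all genes tested, 0.407% had a log2 fold change at or above that of Acan, and 1.12% an unadjusted p at or below it.

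Hapln1, whose product ties aggrecan to hyaluronan, was at 13.5, 10.9, 16.2 and 19.7 CPM in WT 2, 3, 4 and 5. It was at 14.8, 17.8, 19.7 and 15.7 CPM in KO 1, 3, 4 and 5. All KO values lay within the range of the WT values. The log2 fold change was 0.17 (SE 0.18, 95% interval -0.21 to 0.56), and edgeR's adjusted p was 0.64, while voom gave 0.45 with an adjusted p of 0.094. An upward difference of the size of that of Acan lay outside this interval.

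Matrilins are oligomeric adaptor proteins that bind collagens and proteoglycans, and Matn4 is the one found most widely outside cartilage. Matn4 was at 45.2, 39.9, 44.0 and 67.0 CPM in WT 2, 3, 4 and 5. It was at 74.7, 68.9, 73.6 and 98.1 CPM in KO 1, 3, 4 and 5. WT 5 lay close to KO 3, and KO 5 stood highest. The mean was 49.0 ± 12.2 CPM (WT) and 78.8 ± 13.1 CPM (KO), with a log2 fold change of 0.69 (SE 0.17, 95% interval 0.31 to 1.06) and an adjusted p of 0.12 in edgeR. DESeq2 gave an adjusted p of 0.020, limma voom of 0.0067, and edgeR with no low-count filter of 0.012. Matn4 shares 149 bases of exon with Rbpjl, which lies on the other strand and had 6.24% as many reads, so a small part of its count is uncertain.

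Matn1 and Matn3, the matrilins of cartilage proper, were barely detected. Matn1 had 0 reads in the 4 WT libraries, which allows a level of up to 0.0386 CPM over that group, counting error only. In KO it had 0, 0, 1 and 3 reads in KO 1, 3, 4 and 5. Matn3 had 4, 3, 5 and 9 reads in WT 2, 3, 4 and 5. The KO libraries, in the order 1, 3, 4 and 5, had 4, 2, 7 and 14. KO 5 had the most reads of both genes. The KO to WT ratio of Matn3 was 1.23, with an exact 95% interval of 0.672 to 2.30 that covers counting error only, so no difference was detectable at this depth.

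Comp and Chad encode adaptors of the collagen network that tendon and ligament also contain. Comp was at 0.775, 1.19, 0.807 and 0.848 CPM in WT 2, 3, 4 and 5. It was at 0.656, 1.28, 0.783 and 0.884 CPM in KO 1, 3, 4 and 5. The 2 groups covered nearly the same range. The log2 fold change was -0.0037 (SE 0.32, 95% interval -0.71 to 0.70), a direction that changed with the settings, and the adjusted p was 0.996 in edgeR. Its coefficients of variation, 21.4% in WT and 30.1% in KO, were near the 23.7% and 23.2% that counting error gives.

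Chad had 24, 8, 22 and 15 reads in WT 2, 3, 4 and 5. It had 20, 16, 15 and 33 reads in KO 1, 3, 4 and 5. WT 3 was the lowest and KO 5 the highest, and the groups overlapped. The log2 fold change was 0.23 (SE 0.42, 95% interval -0.69 to 1.15), and edgeR's adjusted p was 0.81. The log2 fold change was -0.10 without KO 5 and -0.029 without WT 3. Chad lies within Acsf2, a gene on the other strand with 1512% as many reads and no shared exon, so its count is uncertain.

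Cnmd encodes chondromodulin, a membrane protein of avascular cartilage that restrains vessel growth, and Ucma encodes a small Gla-rich protein of the upper growth plate. Cnmd had 9, 5, 4 and 3 reads in WT 2, 3, 4 and 5. The KO libraries, in the same order as above, had 1, 9, 4 and 4, so the groups overlapped. Its KO to WT ratio was 0.823, with an exact 95% counting interval of 0.413 to 1.62. Ucma had 1 read in WT, in WT 4, and 1 read in KO, in KO 1. Both groups of Ucma were under the limit of 3 reads, and no ratio is given.

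**Figure D3:**
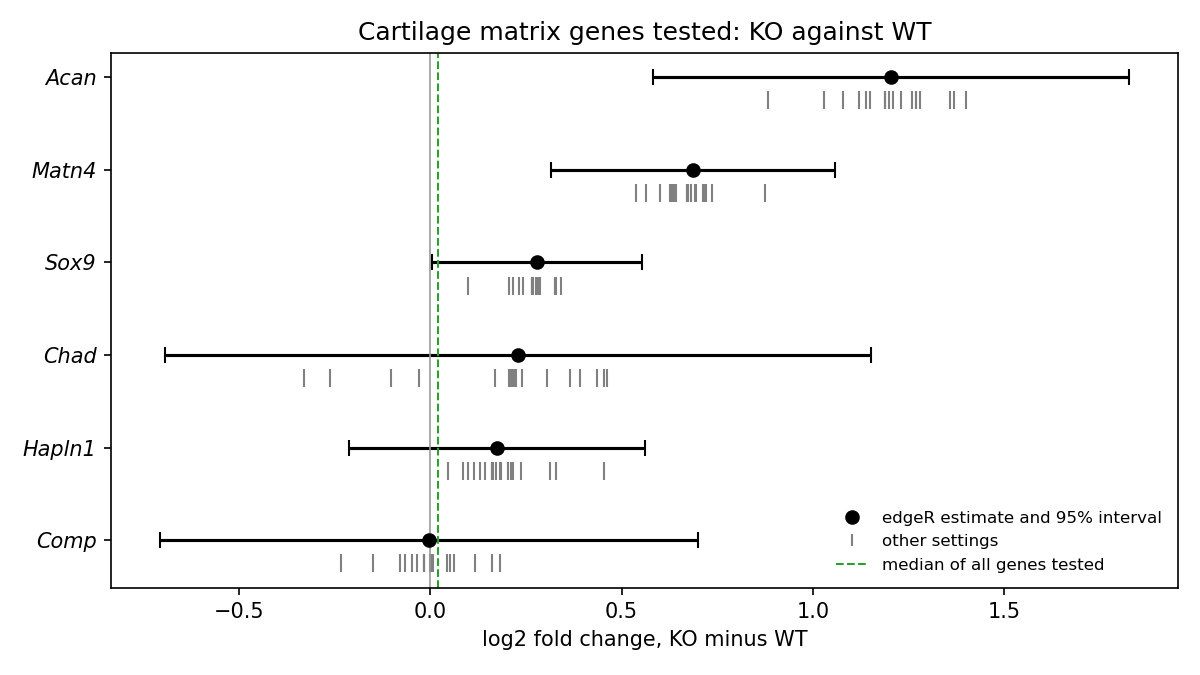
Log2 fold change of KO against WT for the 6 tested genes, with the edgeR estimate and 95% interval in black and the estimates under the other settings as grey ticks below. The intervals of Acan and Matn4 lie above 0.3, that of Sox9 starts at 0.0041, and those of Chad, Hapln1 and Comp span 0.

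KO 5 was the highest of all 8 libraries in Sox9, Matn4 and Chad, KO 1 in Acan, KO 3 in Comp and WT 5 in Hapln1. WT 3 was the lowest in Acan, Matn4, Hapln1 and Chad. Without KO 1 and KO 5 together the log2 fold change was 0.88 for Acan and 0.54 for Matn4, with adjusted p of 0.32 and 0.34 in edgeR. With Xist as a covariate it was 1.37 for Acan (unadjusted p = 0.015) and 0.64 for Matn4 (unadjusted p = 0.051), and edgeR's adjusted p was 0.95 for both.

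Ratios within a library do not depend on the scaling between libraries. Acan had 11.7, 4.94, 5.51 and 7.48 reads per 100 Sox9 reads in WT 2, 3, 4 and 5. It had 20.04, 9.19, 12.6 and 13.9 in KO 1, 3, 4 and 5. WT 2 lay above KO 3, so the groups overlapped. Per 100 Hapln1 reads, Acan had 9.94 to 19.8 reads in WT and 15.9 to 37.3 in KO, and per 100 Matn4 reads 2.99 to 5.88 and 4.13 to 7.39. Per 100 Col2a1 reads it had 6.45 to 14.4 in WT and 7.74 to 13.1 in KO, so that all KO values lay within the WT range.

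**Figure D4:**
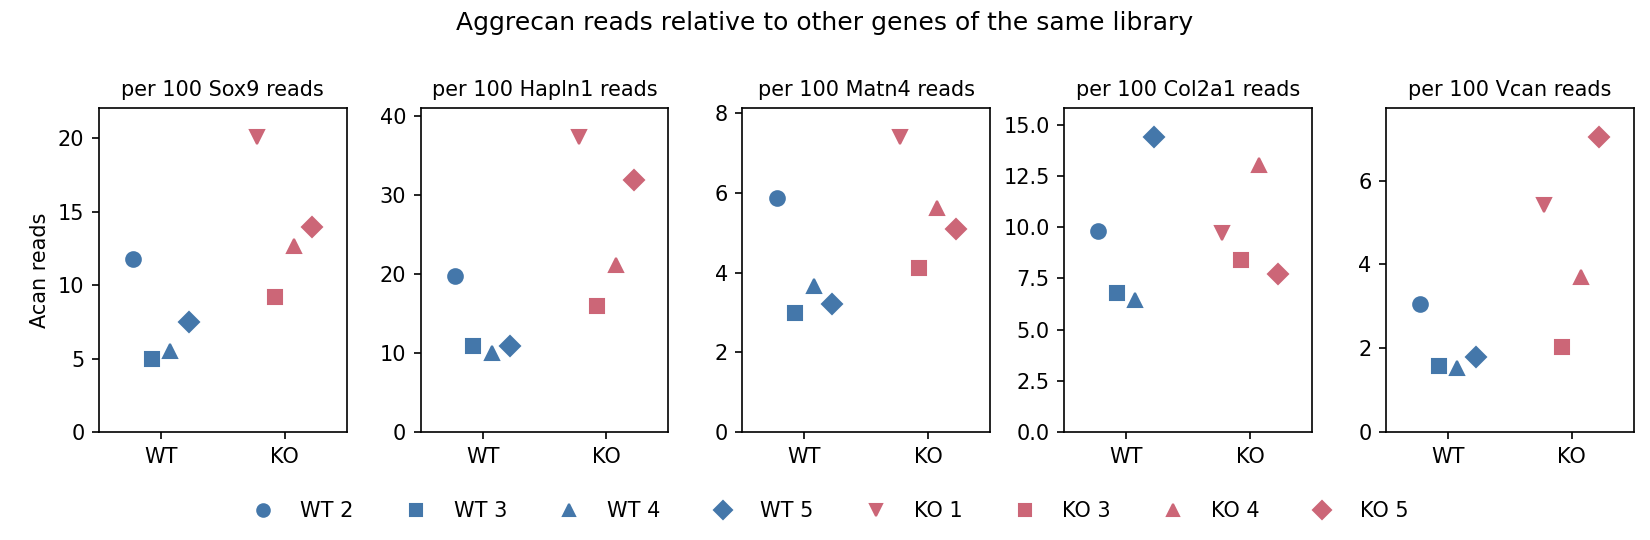
Aggrecan reads per 100 reads of Sox9, Hapln1, Matn4, Col2a1 and Vcan in the same library, each axis starting at 0. WT 2 lies among the KO points in all 5 panels, and with Col2a1 as reference the KO points lie within the range of the WT points.

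The genes most like Acan across the 8 libraries were ranked by Pearson's r of log2 CPM among the 16204 other genes tested, as a description. The 5 protein-coding genes with a mean of at least 2 CPM and the highest r were P4htm (r = 0.980), Kcnab3 (r = 0.978), 2410002F23Rik (r = 0.974), Selenon (r = 0.965) and C1s1 (r = 0.964). Matn4 was at place 308 (r = 0.850), Chad at 2361 (r = 0.591), Sox9 at 3096 (r = 0.526), Hapln1 at 4796 (r = 0.374) and Comp at 12956 (r = -0.499). Col9a2 and Col2a1 were at places 252 and 286, with r of 0.860 and 0.853. The profiles share the libraries, the scaling and the difference between the groups, and 8 points order so many genes only coarsely.

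Cartilage collagens were the nearest other list. Of 8 tested, 7 lay above and 1 below the WT level, where 53.1% of all genes tested lay above. The median log2 fold change was 0.45. By edgeR 0 of the 8 passed, where 0.0309% of all genes tested did. At an unadjusted p of 0.05, 4 were higher, where 8.70% of all genes tested were. Col2a1 was at 21.1 ± 5.85 CPM (WT) and 46.8 ± 16.4 CPM (KO) and Col9a2 at 24.3 ± 2.82 and 46.6 ± 17.1 CPM. Both had an adjusted p of 0.10 by edgeR. Col9a3 was at 29.2 ± 5.87 CPM (WT) and 40.3 ± 9.21 CPM (KO), and Tcfl5 overlaps it with 13.7% as many reads. In 3 of the 8, Col2a1, Col9a2 and Col9a3, the groups did not overlap, as in Acan. All 3 were higher in KO, where the groups of 5.50% of all genes tested lay apart in that direction. Col10a1, the collagen of hypertrophic cartilage, was at 2.12 ± 0.683 and 1.64 ± 0.525 CPM, and its count is uncertain because Nt5dc1 overlaps it with more reads. Col11a2, which bone and tooth cells also make, was by far higher than Col2a1, at 1076 ± 414 CPM (WT) and 1536 ± 261 CPM (KO).

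Among 16 regulators and growth plate signals, 13 were tested, of which 5 lay above and 8 below the WT level, at a median of -0.15 (log2). By edgeR 0 passed, and an unadjusted p of 0.05 was met by 2 upward and 2 downward. Of all genes tested, 8.70% met it upward and 6.98% downward, and 53.1% lay above the WT level. Pth1r, the receptor of parathyroid hormone and PTHrP, was at 23.9 ± 3.06 CPM (WT) and 44.4 ± 11.01 CPM (KO) (adjusted p = 0.079 in edgeR). Fgfr3, a receptor that restrains chondrocyte growth, was at 35.8 ± 5.02 and 51.9 ± 4.21 CPM. In both Pth1r and Fgfr3 all KO values lay above the WT values, as in 5.50% of all genes tested. Sox6, a partner of SOX9, was at 15.2 ± 2.53 and 10.8 ± 1.68 CPM, with all KO values under the WT values, as in 5.44% of all genes tested. Zbtb20 was at 71.5 ± 17.4 and 41.7 ± 16.1 CPM. Ihh, the hedgehog ligand of prehypertrophic chondrocytes, had 34 reads in all 8 libraries and was not tested.

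Among 16 other cartilage matrix genes 10 were tested, 8 higher and 2 lower, with a median of 0.49. In edgeR 0 were past the threshold and 3 were higher at an unadjusted p of 0.05. Of all genes tested, 53.1% were higher, and 8.70% were higher at that unadjusted p. Fmod, a collagen-binding proteoglycan of tendon, ligament and cartilage, was at 36.8 ± 6.23 CPM (WT) and 60.8 ± 8.35 CPM (KO) (adjusted p = 0.080 in edgeR). Cilp was at 0.627 ± 0.378 and 2.07 ± 1.39 CPM, Mgp, an inhibitor of calcification, at 28.0 ± 3.51 and 41.6 ± 14.8 CPM, and Fibin at 5.61 ± 1.63 and 7.66 ± 1.48 CPM. Snorc, Cytl1 and Clec3a, also of this list, were named outside the rule given below. Snorc had 10 reads in all 8 libraries, Cytl1 had 2, and Clec3a had none. They do not stand for the list, of which 10 genes had enough reads to be tested.

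The paralogs of the set, genes of the same families, had 15 members, of which 13 were tested, 12 higher and 1 lower in KO, with a median of 0.53, and 5 of the 15 are also on another list. By edgeR 0 passed, and 8 were higher at an unadjusted p of 0.05. Of all genes tested, 53.1% were higher, and 8.70% were higher at that unadjusted p. The 4 with the smallest p were thrombospondins, the family of COMP. Thbs1 was at 206 ± 13.9 CPM (WT) and 294 ± 36.3 CPM (KO), Thbs2 at 103 ± 23.8 and 144 ± 9.50 CPM, and Thbs4 at 57.1 ± 12.7 and 90.2 ± 23.5 CPM. Thbs3 was at 16.6 ± 4.19 and 27.05 ± 2.42 CPM, a count that is uncertain because Mtx1 overlaps it with more reads. Of genes chosen after their values were seen, Matn2 was at 342 CPM (WT) and 294 CPM (KO), with no overlap between the groups and the KO values the lower, the opposite order to Matn4; the difference between these 2 genes was not tested. Vcan, the large proteoglycan most like aggrecan outside cartilage, was at 97.5 ± 20.0 and 106 ± 28.5 CPM.

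Enzymes that build chondroitin sulfate and hyaluronan had 23 genes, all tested, with Cd44, the hyaluronan receptor, counted among them. Of these 12 were higher and 11 lower in KO, with a median of 0.030, and 0 passed in edgeR. An unadjusted p of 0.05 was met by 4 upward and 3 downward. Of all genes tested, 8.70% met it upward and 6.98% downward, and 53.1% were higher. Chpf, a chondroitin polymerising factor, was at 46.3 ± 6.45 CPM (WT) and 69.6 ± 15.6 CPM (KO), and Chst13, a sulfotransferase, at 4.14 ± 0.780 and 7.01 ± 1.83 CPM. Has3, a hyaluronan synthase, was at 181 ± 32.3 and 130 ± 19.8 CPM, and Chpf2 at 38.5 ± 3.20 and 47.3 ± 3.99 CPM. The counts of Has3 and Chpf2 are uncertain because Chtf8 and Smarcd3 overlap them. The list's summed level, most of it from Cd44, was 1963 to 2047 CPM over the WT and 1586 to 1910 CPM over the KO libraries.

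Genes that break down aggrecan or hold its proteases in check had 11 members, of which 10 were tested, and all 10 had a log2 fold change above 0, with a median of 0.35. By edgeR 0 passed, and 4 were higher at an unadjusted p of 0.05. Of all genes tested, 53.1% were above 0, and 8.70% were higher at that unadjusted p. Adamts1, a protease that can cut aggrecan, was at 48.6 ± 6.17 CPM (WT) and 67.8 ± 9.09 CPM (KO), Mmp13, a collagenase of bone and cartilage, at 184 ± 37.8 and 280 ± 54.7 CPM, and Mmp14 at 630 ± 34.9 and 824 ± 125 CPM. The summed level of the list, most of it from Mmp14 and Mmp13 together, was 1190 to 1390 CPM over the WT and 1518 to 1818 CPM over the KO libraries.

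Markers of several other tissues were also mostly higher in KO, where 53.1% of all genes tested were. Their part in the values of Acan and Matn4 was not tested. The pulp mesenchyme markers (8 of 9 higher, median 0.53) had a summed level of 2980 to 4819 CPM over the WT and 4659 to 7076 CPM over the KO libraries. Col3a1 was a large part of this sum, at 1409 to 2683 CPM (WT) and 2532 to 4396 CPM (KO). The bone markers had 8 of 10 tested higher (median 0.40). The ligament and tendon markers had 7 of 8 higher (median 0.22), at 1629 to 2466 CPM over the WT and 2164 to 2482 CPM over the KO libraries. The 4 with the smallest p, Fmod, Thbs4, Tnc and Aspn, were all higher in KO. Tnc was at 914 ± 213 CPM (WT) and 1154 ± 130 CPM (KO), and Aspn at 57.9 ± 17.1 and 70.4 ± 14.4 CPM. Scx and Tnmd, also of this list, were named outside the rule given below. Scx, the 1 gene of the list that was lower, was at 25.1 ± 8.03 and 20.2 ± 8.81 CPM. Tnmd was at 48.7 ± 7.68 and 54.3 ± 9.19 CPM. Scx is overlapped by Bop1 with more reads. The Schwann cell markers were higher in 7 of 7 (median 0.63), at 133 to 153 CPM over the WT and 151 to 184 CPM over the KO libraries. The oral keratinocyte markers were lower in 9 of 9 (median -1.35), at 769 to 1382 CPM over the WT and 699 to 825 CPM over the KO libraries. Of these, 1 gene, Krt1, passed in edgeR, where 0.0309% of all genes tested did. The skeletal muscle markers were higher in 7 of 9 (median 0.30), the odontoblast markers in 4 of 7 (median 0.13, with Smpd3 past the threshold, as were 0.0309% of all genes tested) and the enamel organ markers in 6 of 13 (median -0.0055). At an unadjusted p of 0.05 in edgeR, 7 oral keratinocyte markers and 1 enamel organ marker were lower, where 6.98% of all genes tested were. Higher were 6 pulp mesenchyme, 5 bone, 4 Schwann cell, 2 ligament and tendon, 1 odontoblast, 1 enamel organ and 0 skeletal muscle markers. Of all genes tested, 8.70% were higher at that p. The count of Smpd3 is uncertain because Prmt7 overlaps it with 50.1% as many reads.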

How the data were processed

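RNA was sequenced from 8 libraries, 4 WT and 4 KO, after polyA capture, per the labels' protocols. The authors deposited 1 table of counts, whole numbers of reads per Ensembl gene that were not normalised, with gene lengths of their own (other values, in bases, per the file headers). The submitters' processing notes name CASAVA and mm39. Of 54532 gene IDs, 54409 were in GENCODE M21 and 98.3% of these had its GRCm38 coordinates, so GRCm38 is used. The aligner, the counter and its use of strand: not given in the sources used here.

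Genes were filtered with filterByExpr (minimum count 10, minimum total 15), leaving 16205. KO was compared with WT by edgeR 4.0.16 (R 4.3.3; TMM, factors 0.936 to 1.06; quasi-likelihood, robust, two-sided, Benjamini-Hochberg over all genes tested), checked on simulated data. SE is the size of the estimate over the root of F. Alternatives used DESeq2 1.42.0, limma 3.58.1, other scalings and filters, a covariate, a block and fewer libraries. Named by rule were all 10 genes, the 4 with the smallest p of each other list, Wdr72 and the 5 genes most like Acan. Some others were named outside this rule, among them Scx, Tnmd, Snorc, Cytl1 and Clec3a. The genes and lists were chosen with earlier results of these data known. Not every gene that the rule names in these lists is reported here.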

Additional observations from a re-analysis of the deposited data

Results flagged for a closer look

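Single libraries were checked against the other 3 of their group for the 10 genes of the set and other genes, named by rule or outside it. The check covered 148 groups of 4 libraries with at least 50 reads per gene. In 17 of them the highest or lowest library stood far from the rest by Dixon's criterion, which chance gives in about 1 of 20 groups, and 0 were of the cartilage matrix set. WT 5 was the library in 9 of the 17: Col11a2 at 1696 CPM, Col11a1 at 1276, Col9a3 at 20.5, Col1a1 at 32300, Bglap at 1650, Tnc at 1234, Cldn10 at 14.3, Ngfr at 6.05 and Rbpjl, the neighbour that overlaps Matn4, at 5.82 CPM. All of these were the highest of the WT libraries except Col9a3, which was the lowest. KO 5 was the library in 5, each the highest of KO: Epcam at 114 CPM, Ifitm5 at 12.5, Mfap4 at 54.0, Krt13 at 45.3 and Scx at 33.3 CPM. The others were Aspn in WT 2 at 83.3 CPM, Krt1 in WT 4 at 18.9 CPM and Smpd3 in KO 4 at 62.8 CPM. Some of these counts are uncertain because another gene overlaps them. Tcfl5 has 13.7% as many reads as Col9a3, Prmt7 50.1% as many as Smpd3, and Mapk7 54.1% as many as Mfap4. Bop1 has 237.5% as many as Scx. Matn4 has 1603% as many as Rbpjl, and WT 5 was also the highest WT library in Matn4.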

How the results depend on the processing

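Acan, Matn4, Sox9 and Hapln1 kept a log2 fold change above 0 in all settings run. The number of genes called over the whole table, 5 by edgeR, was 2 with library totals, 465 with DESeq2, 1073 with limma voom, 241 with no low-count filter, 1 with the Xist covariate, 11 without KO 1 and KO 5, and 0 to 55 when a single library was left out; fewer libraries also give less power. With no filter 9 of 10 genes of the set were higher in KO. Their directions say little: the 9 include Ucma, with 1 read in each group, Matn1, with 4 reads in all, and Comp. The median log2 fold change in that fit was 0.26 over the set and -0.031 over all 31876 genes. The share of all these genes above 0 was not worked out. Comp turned to 0.0040 with no filter, 0.00016 with the Xist covariate and 0.18 without KO 1 and KO 5, and ran from -0.23 to 0.16 with a single library left out. Chad turned to -0.26 with the Xist covariate and -0.33 without KO 1 and KO 5, and ran from -0.10 to 0.46. The cause was not tested. The replicate block over numbers 3, 4 and 5 (6 libraries) called 1 gene, as did the same 6 libraries with no replicate block, which was added after the data were seen; Comp was at 0.043 with the block and at 0.050 without it. Same-numbered libraries did not deviate together (r of deviations -0.143, -0.0923 and -0.121), so the numbers were not taken as pairs. Depth limits Matn1, Ucma, Cnmd and Matn3, with 48 reads or fewer each over all libraries.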
